A study of Mus musculus with 6 samples.

Results

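Transcript clusters with several gene symbols are the units of the array that the platform annotation assigns to 2 or more differently named genes. The annotation lists 32750 of the 65956 clusters of the deposited table, 30604 with 1 symbol and 2146 with several, where repeats of a symbol count once. Of these 2146, the 1575 with a mean over the 6 arrays above 4.03 on the log2 scale, a percentile limit taken over all clusters, are described here, and 571 were left out by that level. The choice used the symbols and the mean over all arrays, not the difference between the groups. The clusters nearest the limit were H19 / Mir675 and a pair that both list Btbd35f29 and Btbd35f30, at 4.03, and Olfr643 / Olfr639 just below it, at 4.027.

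A cluster is a set of probes read as a single value. When its probes match the transcripts of neighbouring or overlapping genes, or of duplicated genes with nearly the same sequence, the annotation lists all of them, and the value belongs to none of them alone. Such clusters are therefore named here by all their symbols together. Genes that share a cluster are often recent tandem duplicates, such as globins, histones and heat shock genes, or a gene with its processed pseudogenes, or a host gene with the small RNA inside it. A further kind is a single gene listed under an old and a new name. MicroRNAs are short RNAs cut from hairpins, often from introns of host genes, and they direct Argonaute proteins to messenger RNAs through the seed near their 5′ end.

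The samples are kidneys of 6 female Pkd1 miR transgenic mice, all aged P63, in a model of polycystic kidney disease in which a transgene carries a microRNA against Pkd1. All 6 mice carry the transgene, so no group shows the normal kidney. In the control group 3 mice were injected with saline. In the treated group 3 mice received metformin, a biguanide drug for diabetes, by intraperitoneal injection at 150 mg per kg per day, and both treatments lasted from day 35 to day 63. Total RNA of the whole kidney was hybridised to 1 array per mouse, and the labels call the samples biological replicates. In whole tissue, fewer cells of a type and less RNA per cell cannot be told apart.

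The mature microRNAs below belong to clusters that rose, except miR-7019, which shares a single cluster with its host Pink1. That shared cluster fell. They are shown because the largest rise was that of a cluster listing a microRNA alone, and because some of them share a seed. The sequences are RefSeq's (GRCm38.p6), written 5′ to 3′, with the seed (bases 2 to 8) in capitals. The values do not separate a mature microRNA from its precursor.
miR-6907-5p: uUCUGGGAcacagggaggcucg
miR-6907-3p: aACGUGCGuuucuuuuguguccu
miR-7019-5p: aUCUGGGAggggcugucaggagu
miR-125a-5p: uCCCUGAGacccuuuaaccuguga
miR-6367: uCCCUGAGacccugguucagga
miR-6911-5p: uGGGCUGAgugggucuguggcau
miR-7028-5p: uGGGCUGAggcuugggucaggag
miR-6541: cACAGGCAaggacuucucaag
miR-7026-5p: uUCUGAGAccaugggguauau
miR-6955-5p: aGGGCCUCaggacucaggagguga
miR-7005-5p: cCUGGGGAugggaggaccagca
miR-6942-5p: uAGGAGGAggggaacauuugc
miR-21b: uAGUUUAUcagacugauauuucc
miR-682: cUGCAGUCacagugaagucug
The seed CCCUGAG is shared by miR-125a-5p and miR-6367, GGGCUGA by miR-6911-5p and miR-7028-5p, and UCUGGGA by miR-6907-5p and miR-7019-5p. In the first 2 of these pairs both clusters rose. The clusters of the first pair, Spaca6 / Mir125a / Ncrna00085 and Ahnak / Mir6367, also list other genes. Their values therefore cannot be assigned to the microRNAs. In the third, the Mir6907 cluster rose and the Pink1 / Mir7019 cluster fell.

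The 250 bases before the start of each alpha globin gene are shown because the clusters of these duplicated genes fell together, and because the genes cannot be told apart by the array. They lie on the plus strand of GRCm38.p6 at chr11:32283422-32283671 for Hba-a1 and chr11:32296242-32296491 for Hba-a2, from RefSeq. Capitals mark GATAAG, a form of the GATA motif, and CCAAT, searched on both strands.
Hba-a1: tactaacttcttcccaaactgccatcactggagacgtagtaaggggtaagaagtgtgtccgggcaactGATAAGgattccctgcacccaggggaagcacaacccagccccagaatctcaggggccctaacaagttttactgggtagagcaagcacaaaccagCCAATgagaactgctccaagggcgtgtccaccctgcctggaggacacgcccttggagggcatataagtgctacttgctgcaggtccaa
Hba-a2: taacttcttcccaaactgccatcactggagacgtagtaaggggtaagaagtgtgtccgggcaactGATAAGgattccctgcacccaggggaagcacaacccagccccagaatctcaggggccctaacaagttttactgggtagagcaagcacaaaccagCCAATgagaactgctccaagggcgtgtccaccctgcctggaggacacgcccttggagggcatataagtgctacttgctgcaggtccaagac
Both windows hold 1 match to each motif. GATAAG occurs in 6.6% and CCAAT in 34.46% of the 27025 RefSeq promoter windows of this length. The alpha globin windows agree at 97.6% of aligned positions, 247 of 253, where gaps count as unequal. They differ only by an offset at their ends, and the 247 bases they share are the same. Other duplicates described below range from identity at all aligned bases (Tmem254a and Tmem254c) and 98.8% (Hspa1a and Hspa1b) to 70.9% (Hbb-bs and Hbb-bt) and 51.3% (Psme2 and Psme2b).

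The 1575 clusters list 3135 different symbols, of which 99.5% were found in RefSeq. Exactly 2 symbols are listed by 1156 clusters and 3 or more by 419. At least 10 are listed by 37, and the longest list has 15. By their symbols, 464 hold 1 named gene with predicted loci or pseudogenes. Named genes with a shared family root make up 244, named genes without one 147 and predicted loci alone 255. A small RNA stands beside another gene in 239, and 226 list small RNAs alone. RefSeq resolves all names of 452 clusters to a single gene, among them 212 of the 226 with small RNAs alone. Of the other 1123, the listed genes overlap in 316, lie within 10 kb in 105, lie further apart on a chromosome in 503 and on different chromosomes in 191. For 8, fewer than 2 genes could be placed. Another cluster has identical values on all arrays for 109 of the 1575, which leaves 1511 different sets of values.

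The comparison asks which of these shared transcript units differ between metformin and saline kidneys. In the limma fit over all 43992 clusters above the level, 127 of the 1575 clusters with several symbols rose and 64 fell in metformin kidneys (Benjamini-Hochberg adjusted p under 0.05). That is 12.1% called, against 17.7% of all clusters tested. The shares were 8.06% higher and 4.06% lower, against 12.6% and 5.05% of all clusters. Clusters with 1 symbol were called at 15.1% (6.6% higher, 8.54% lower), and clusters the annotation does not list at 20.9% (19.7% higher, 1.2% lower). The median change was 0.08 for clusters with several symbols, 0.09 for all, 0.02 for clusters with 1 symbol and 0.21 for those not listed. The called clusters with several symbols thus formed a smaller share than in the table as a whole.

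Direction depended on the scaling of the arrays. As deposited, 66.5% of the called clusters with several symbols were higher in metformin kidneys. The share was 44.1% of 143 calls after median-centring each array and 30.3% of 198 calls after quantile normalization. No call turned its sign under either. The median of all clusters moved from 0.09 to 0.0 and -0.01, and that of clusters with several symbols from 0.08 to -0.01 and -0.03. The upper quartiles of the arrays as deposited lay between 7.01 and 7.12 in saline and between 7.21 and 7.34 in metformin kidneys. Single arrays moved the number of calls. Leaving out saline replicate 1 gave 33 and saline replicate 3 gave 99, while metformin replicates 1, 2 and 3 gave 59, 65 and 104. Leaving out saline replicate 2 gave 197. In all 6 fits 30 of the 191 calls held, 14 higher and 16 lower.

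**Figure D1:**
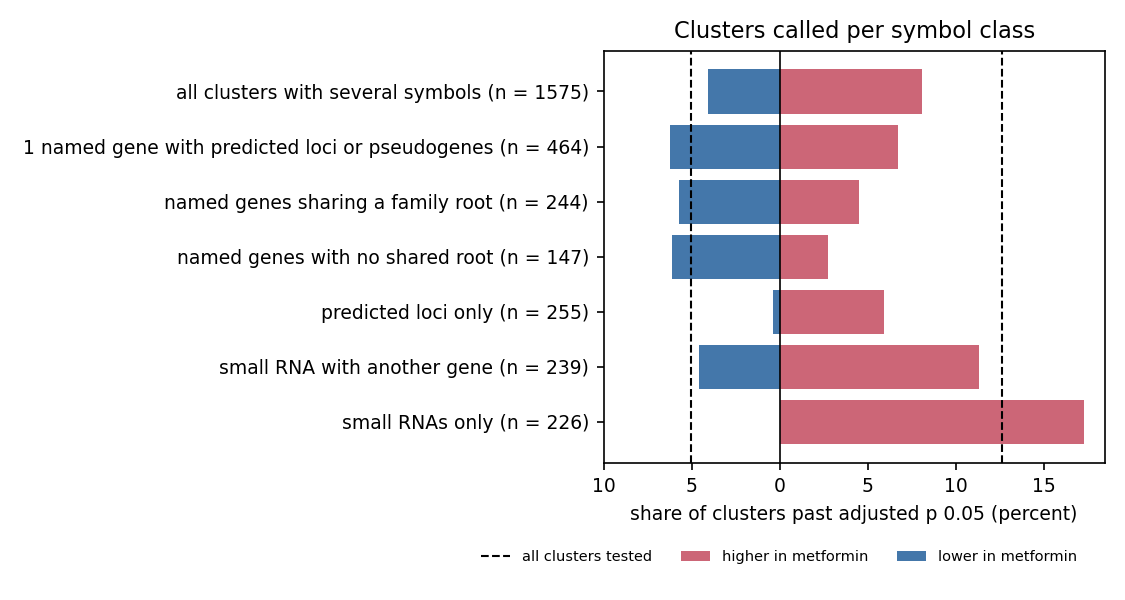
Share of clusters called per symbol class, in percent, with clusters higher in metformin kidneys to the right and lower to the left; the dashed lines mark the 12.6% higher and 5.05% lower of all clusters tested. Small RNAs alone were called at 17.3%, all higher, and predicted loci at 6.27%.

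The share that rose and fell was counted per class. Among clusters of small RNAs alone, 39 of 226 rose and 0 fell, with a median change of 0.24. Among those with a small RNA beside another gene, 27 of 239 rose and 11 fell (median 0.1), with 33 different sets of values among the calls. Clusters with 1 named gene and predicted loci or pseudogenes were split, 31 higher and 29 lower of 464 (median 0.0). Named genes sharing a root gave 11 higher and 14 lower of 244 (median 0.03), and named genes without a shared root 4 higher and 9 lower of 147 (median 0.04). Predicted loci alone gave 15 higher and 1 lower of 255 (median 0.1). The difference between classes was not tested. After quantile normalization small RNAs alone still had 17 higher and 0 lower (median 0.12). The classes of a small RNA with another gene and of 1 named gene with predicted loci then had more lower than higher calls (20 against 13, and 58 against 16). Family roots had 29 lower and 4 higher, no shared root 25 lower and 3 higher, and predicted loci alone 6 lower and 7 higher.

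Clusters of small RNAs alone were lower on the saline arrays and higher on the metformin arrays. Their mean deviation from each cluster's own mean was -0.17, -0.23 and -0.04 in the saline group and 0.2, 0.08 and 0.16 in the metformin group, in replicate order. Over all clusters tested the deviations were -0.08, -0.05, -0.06 and 0.11, 0.04, 0.04. The spread between the groups was thus wider for small RNAs alone than for the table. Their median change of 0.24 was close to the 0.21 of clusters that the annotation does not list. The count of 39 fell to 10 without saline replicate 1 and to 14, 16 and 21 without metformin replicates 1, 2 and 3, and was 31 and 29 without saline replicates 2 and 3.

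The largest rise among all 1575 clusters was that of Mir6907, a microRNA gene also listed as mmu-mir-6907. Its log2 values were 8.0, 8.18 and 7.82 in saline and 9.62, 9.45 and 9.45 in metformin kidneys. The groups did not overlap, and the difference was 1.5 ± 0.13 (SE, n = 3 per group; limma adjusted p = 0.00746), or 2.83-fold. Mir6541 stood at 7.35, 7.17 and 6.63 in saline and at 8.69, 8.13 and 8.09 in metformin kidneys. All treated arrays lay above all control arrays (1.25 ± 0.23, adjusted p = 0.014). Mir7026 read 6.48, 6.67 and 6.31 against 7.71, 7.89 and 7.16 (1.1 ± 0.2, adjusted p = 0.0136). Mir7005, the brightest of this set, read 9.54, 9.84 and 9.55 against 10.89, 10.54 and 10.54 (1.02 ± 0.14, adjusted p = 0.00779). In both of these the groups were again apart. Mir6955 (1.04 ± 0.17, adjusted p = 0.0102) and Mir6942 (0.93 ± 0.11, adjusted p = 0.00746) completed the 6 largest rises of the class. Mir21b, a gene close in sequence to the well studied Mir21a and chosen here after its value was seen, rose by 0.91 ± 0.16 (adjusted p = 0.0129). Its values were 4.91, 4.45 and 4.33 in saline and 5.5, 5.52 and 5.41 in metformin kidneys. Mir21a itself shares a cluster with its host, Vmp1 / Mir21a / Mir21, at 10.97, 11.38 and 11.01 against 11.55, 11.55 and 10.94. There the groups overlapped (0.23 ± 0.2, adjusted p = 0.475). Of the 7 calls in this set 6 held when any array was left out, and Mir7026 was lost without saline replicate 1 (adjusted p = 0.0538).

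**Figure D2:**
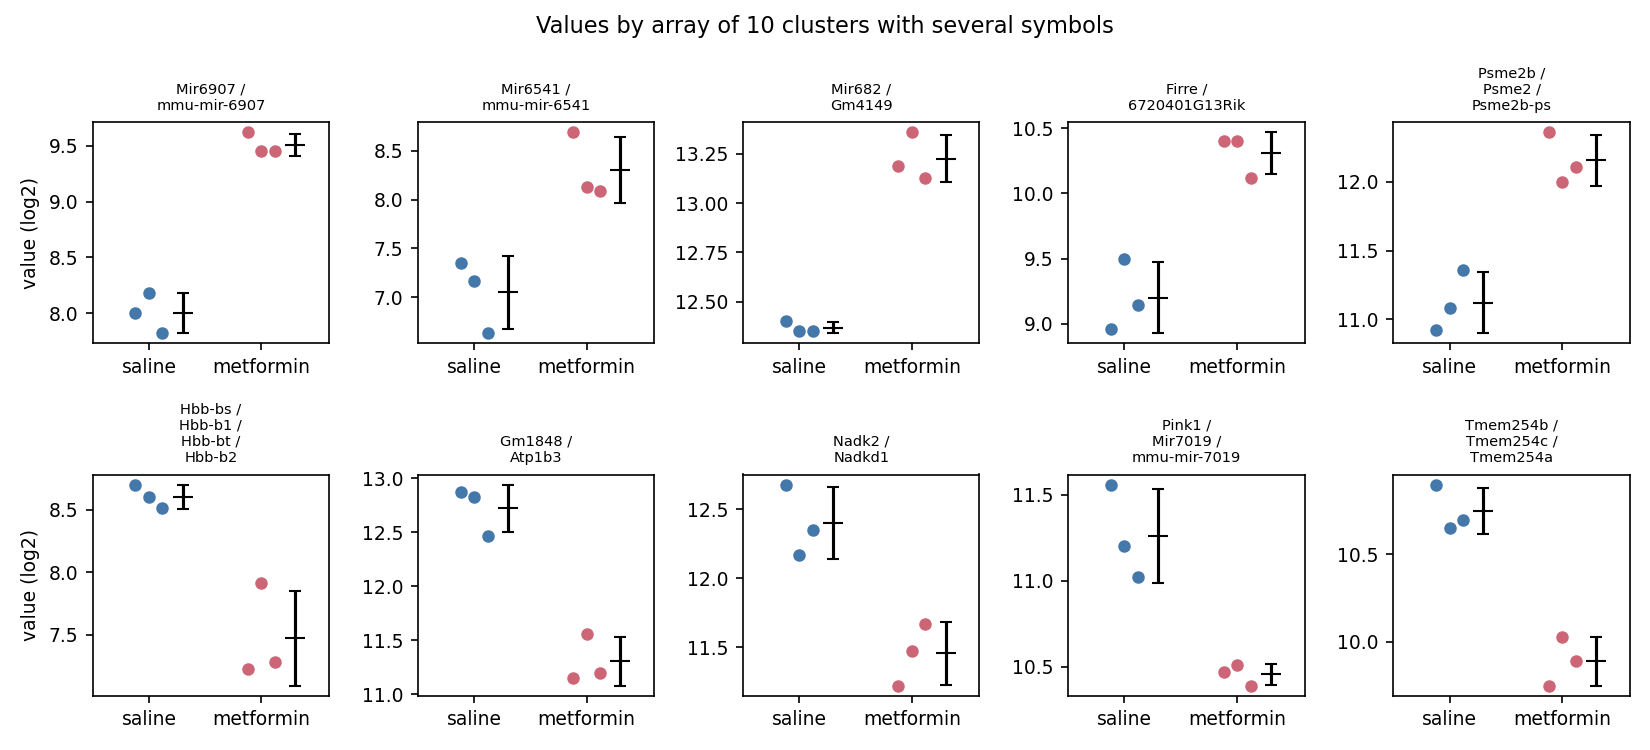
Log2 values of 10 clusters on the 3 saline and 3 metformin arrays (points), with the mean and SD of each group (bars); each panel has its own axis. The 10 were picked among called clusters, so that groups lying apart in every panel follows from the choice. Examples are Mir6907 (7.82 to 8.18 against 9.45 to 9.62) and Gm1848 / Atp1b3 (12.47 to 12.87 against 11.15 to 11.56).

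Most microRNAs among these clusters lie inside other genes. RefSeq places a hairpin for 184 of the clusters that are a single microRNA under several names, and 130 of these lie in a host gene on the same strand. The host had a cluster of its own above the level in 115 cases. Its change was 0.14 at the median, where that of the microRNA clusters was 0.34. Of the 24 microRNA clusters that rose and had a measured host, 5 had a host that rose and 1 a host that fell. Of the 91 that did not pass, 8 had a host that rose and 4 a host that fell, and the difference between these shares was not tested. Of all clusters tested 12.6% rose and 5.05% fell. The hosts that rose were Lama5 (1.25, adjusted p = 0.016), a laminin chain of basement membranes that holds Mir7005, and Egfem1 (1.22, adjusted p = 0.00746), which holds Mir21b. The others were Fbrs (0.71, adjusted p = 0.0201), Srrt (0.69, adjusted p = 0.0164) and Ep400 (0.48, adjusted p = 0.0452), with Mir7060, Mir7036 and Mir7026. Retreg1, a receptor for autophagy of the endoplasmic reticulum, fell (-1.03, adjusted p = 0.0121), while Mir7212 inside it rose (0.79 ± 0.17, adjusted p = 0.0218). Rrp1, the host of Mir6907, differed by -0.05 (adjusted p = 0.855). Across the 115 pairs, which share arrays and samples, Pearson's r between the changes was 0.12, given as a description.

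**Figure D3:**
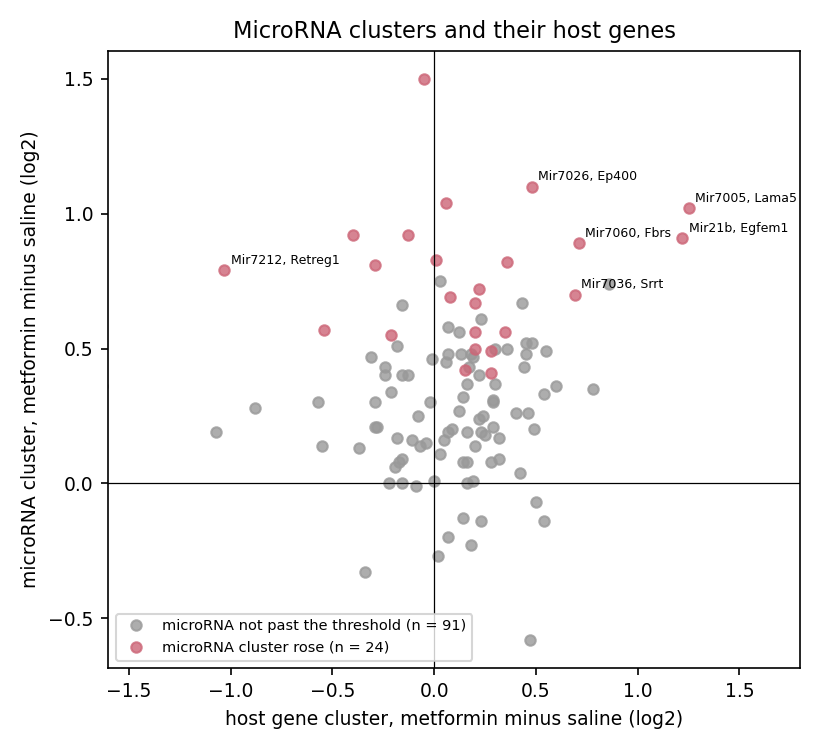
Change of 115 microRNA clusters (vertical axis, log2 metformin minus saline) against that of the cluster of their host gene (horizontal axis, log2); red points are the 24 microRNA clusters that rose, named where the host was called. 5 of these hosts rose and 1, Retreg1, fell. The pair of Mir7085 (0.36) and its host Slc37a4 (-1.63) lies beyond the left edge.

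The hairpins of the 31 microRNA clusters that rose and have a RefSeq hairpin had a median GC content of 54.9%, and the 153 that did not pass the threshold 54.8%. Their median levels were 6.77 and 5.37 on the log2 scale. Of the 123 hairpins with a 3p arm in RefSeq, 89 (72.4%) had a 3p arm that ends in AG, the letters at the 3′ end of an intron. Among all 709 mouse 3p arms in RefSeq the share was 27.6%. It was 66.7% (16 of 24) among the clusters that rose and 73.7% among those that did not pass. miR-7019-3p, which ends this way, lies in Pink1.
miR-7019-3p: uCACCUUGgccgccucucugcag

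Where a small RNA shares a cluster with another symbol, 27 of 239 rose, against 12.6% of all clusters tested. RefSeq resolves 19 of the 239 to a single gene, and 7 of these rose, with 2 different sets of values. Spaca6 / Mir125a / Ncrna00085 joins a gene of the sperm acrosome to the microRNA Mir125a. Its values were 9.29, 9.71 and 8.93 in saline and 10.78, 10.74 and 10.02 in metformin kidneys, with no overlap (1.2 ± 0.26, adjusted p = 0.0214). Ahnak / Mir6367 names a very large scaffold protein and a microRNA that RefSeq places on another chromosome. It read 9.85, 10.35 and 9.63 against 11.4, 11.15 and 10.67 (1.13 ± 0.24, adjusted p = 0.0199). All treated arrays were again the higher ones. Syne2 / Mir5101, with a protein that links the nucleus to the cytoskeleton, read 11.83, 12.44 and 12.05 against 13.35, 13.15 and 12.79 (0.99 ± 0.2, adjusted p = 0.0175). Mir682 / Gm4149 had the narrowest spread, 12.4, 12.35 and 12.35 against 13.19, 13.36 and 13.13 (0.86 ± 0.11, adjusted p = 0.00746). Dnm3os / Mir214 / Mir199a-2, a noncoding RNA that holds microRNAs, was also chosen after its value was seen and did not pass (0.68 ± 0.2, adjusted p = 0.0526). Hoxb4 / Mir10a, a homeobox gene and the microRNA beside it, chosen after its value was seen, rose by 0.74 ± 0.15 (adjusted p = 0.0188). Among clusters of small RNAs alone that join a small nucleolar or Cajal body RNA to a microRNA, Snora19 / Mir3084 (0.79 ± 0.12, adjusted p = 0.00957) and Scarna3b / Mir1843a (0.88 ± 0.19, adjusted p = 0.0208) rose. A group of 6 clusters of 5S ribosomal RNA genes, among them Rn5s10 (also listed as Gm25018), carry the same values, which 32 clusters of the table share. They read 13.92, 14.1 and 14.27 against 14.87, 14.44 and 15.25 and so give a single measurement (0.76 ± 0.21, adjusted p = 0.0421). After median-centring and after quantile normalization this 5S value no longer passed. Of the 8 calls named here, 2 (Mir682 / Gm4149 and Snora19 / Mir3084) held when any array was left out. Without saline replicate 1 or without metformin replicate 1, 6 were lost (adjusted p up to 0.139 and 0.108), without saline replicate 3 or metformin replicate 2, 4 (up to 0.065 and 0.0725), without metformin replicate 3, 2 (up to 0.0853), and without saline replicate 2, 1 (0.0721).

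A further 11 such clusters fell, and 8 of them are named here. Pink1 / Mir7019 / mmu-mir-7019 contains Pink1, the kinase that marks damaged mitochondria. It stood at 11.56, 11.2 and 11.02 in saline and at 10.47, 10.51 and 10.39 in metformin kidneys, without overlap (-0.8 ± 0.15, adjusted p = 0.015). Mmgt1 / Mir5116, with a subunit of the membrane protein insertion complex of the endoplasmic reticulum, read 11.52, 11.43 and 11.69 against 10.73, 10.81 and 10.74 (-0.79 ± 0.11, adjusted p = 0.00779). Oaz1 / Oaz1-ps / Mir1982, with the antizyme of ornithine decarboxylase, read 11.07, 11.09 and 11.16 against 9.97, 10.56 and 10.34 (-0.82 ± 0.16, adjusted p = 0.0156). In each of these the treated arrays were the lower ones. Sptssa / Mir1892, with a small subunit of serine palmitoyltransferase, fell by 0.81 on the log2 scale (adjusted p = 0.0225). Zfp518a / Mir8092 / mmu-mir-8092 (-0.58), Fam210a / Mir7219 / mmu-mir-7219 (-0.56), Cct6a / Snora15 (-0.5) and Slc35f6 / Mir5625 / Gm23930 (-0.48) fell as well, with adjusted p from 0.0131 to 0.0396. Of these 8 calls 2 (Pink1 and Mmgt1) held when any array was left out. Without saline replicate 1, 6 were lost (adjusted p up to 0.121), without metformin replicate 2, 4 (up to 0.101), without metformin replicate 1 or 3, 3 (up to 0.1 and 0.0858), and without saline replicate 2 or 3, 1 (0.0556 and 0.093).

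Taken by the small RNA itself, 422 clusters list a microRNA, and 60 rose and 10 fell. That is 16.6% called, below the 17.7% of all clusters tested. After quantile normalization 30 rose and 18 fell. Of 22 clusters with a C/D box small nucleolar RNA, which guides methylation of ribosomal RNA, 0 passed the threshold and the largest change was 0.53. Of 23 with an H/ACA or Cajal body RNA, which guide pseudouridylation, 2 rose and 1 fell. Of 7 clusters with a host gene of small nucleolar RNAs 0 passed. Gas5 / Snord47 / Mir5117 read 9.12, 9.37 and 8.86 in saline and 9.78, 9.56 and 9.47 in metformin kidneys (0.49 ± 0.16, adjusted p = 0.0685). Its groups were apart but the difference did not pass.

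Globin clusters fell together. All 4 clusters with globin genes above the level were lower in metformin kidneys, and 4 of 4 passed, against 5.05% of all clusters that fell. A cluster of both alpha globin genes, Hba-a2 / Hba-a1, read 13.84, 13.75 and 13.53 in saline and 11.51, 13.03 and 11.93 in metformin kidneys (-1.55 ± 0.35, adjusted p = 0.0239), or 2.94-fold lower. The other cluster of the same genes gave 13.66, 13.6 and 13.42 against 11.6, 12.99 and 11.91 (-1.39 ± 0.32, adjusted p = 0.0262). The groups did not overlap, and in both clusters metformin array 2 lay nearest to the saline arrays. Hbb-bt / Hbb-b2 / Hbb-bs / Hbb-b1, the adult beta globins, read 12.47, 12.18 and 12.13 against 10.5, 11.51 and 10.52 (-1.42 ± 0.27, adjusted p = 0.0152). Hbb-bs / Hbb-b1 / Hbb-bt / Hbb-b2, a dimmer cluster of the same set, read 8.7, 8.6 and 8.51 against 7.23, 7.91 and 7.28 (-1.13 ± 0.19, adjusted p = 0.0109). Both measured erythroid markers outside the globins fell too (Slc4a1 is also a marker of collecting duct cells), Slc4a1 by 0.86 and Alas2 by 0.53 on the log2 scale (adjusted p = 0.0292 and 0.0332). Their mean deviation lay between 0.2 and 0.42 on saline and between -0.57 and -0.17 on metformin arrays. How much blood the kidneys held was not tested. The last cluster held when any array was left out. Without saline replicate 1 the other 3 were lost (adjusted p up to 0.0938), without metformin replicate 1 or 3, 2 (up to 0.0686 and 0.0666), and without saline replicate 3, 1 (0.0546).

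Of 5 clusters with a heat shock gene of the Hsp70 or Hsp90 families, a list drawn up after the values were seen, 3 fell and 0 rose, against 5.05% of all clusters that fell. Hspa1b / Hspa1a holds the stress-induced Hsp70 genes, a nearly identical pair. It read 9.86, 10.79 and 9.19 in saline and 8.53, 8.76 and 8.39 in metformin kidneys (-1.39 ± 0.35, adjusted p = 0.0359), or 2.61-fold lower. The groups did not overlap, with saline array 2 the highest, as it was in the score of 9 adipocyte markers (1.16, 2.06 and -0.35 in saline, -1.01, -0.97 and -0.88 in metformin kidneys). With that score in the fit the change was -0.18 (adjusted p = 0.77). The cluster of Hspa1a alone changed by -1.14 and was not called. A pair of clusters combines Hsp90aa1, the inducible Hsp90, with a predicted locus, and both were chosen after their values were seen. Gm5844 / Hsp90aa1 read 14.95, 14.56 and 14.69 against 14.25, 13.92 and 13.74 (-0.77 ± 0.17, adjusted p = 0.0219), and Gm12346 / Hsp90aa1 fell by 0.6 on the log2 scale (adjusted p = 0.035). The cluster of Hsp90aa1 alone changed by -0.35 and was not called. With the adipocyte score in the fit Gm5844 / Hsp90aa1 changed by -0.84 and Gm12346 / Hsp90aa1 by -0.67 (adjusted p = 0.148 and 0.199). Hspa8 / Snord14d / Snord14e / Snord14c, with the constitutive Hsp70, read 15.1, 15.07 and 14.97 against 15.11, 15.07 and 15.14 (0.06 ± 0.1, adjusted p = 0.715), and Gm15459 / Hspa8 changed by -0.25 (adjusted p = 0.123). None of the 3 calls held in every fit with an array left out. All 3 were lost without saline replicate 1 (adjusted p up to 0.12) and without metformin replicates 2 and 3 (up to 0.0944 and 0.0847), 2 without saline replicate 3 (up to 0.0779) and 1 without metformin replicate 1 (0.0962).

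Other families of duplicated genes gave further falls. The 3 clusters that list Tmem254a, Tmem254b and Tmem254c, genes of a small transmembrane protein in tandem copies, all fell. They read 10.9, 10.65 and 10.7 against 9.75, 10.03 and 9.89 (-0.86 ± 0.12, adjusted p = 0.00802), then 12.25, 12.09 and 12.14 against 11.23, 11.46 and 11.35 (-0.81 ± 0.11, adjusted p = 0.00779). The last changed by -0.76 (adjusted p = 0.00779). The last 2 of these were chosen after their values were seen. Cyp4a10 / Cyp4a31, fatty acid hydroxylases of the P450 family, read 16.66, 16.75 and 16.77 against 15.82, 16.41 and 16.14 (-0.6 ± 0.16, adjusted p = 0.0386). All saline arrays were above all metformin arrays. Hist1h2be / Hist1h1e / Hist1h2bg and 2 more, histones of the H2B and H1 families, fell by 0.7 on the log2 scale (adjusted p = 0.0321). The 3 Tmem254 calls held when any array was left out. The other 2 were lost without saline replicate 1 or 3 or metformin replicate 1 or 3 (adjusted p up to 0.112), and 1 without saline replicate 2 or metformin replicate 2 (0.0703 and 0.0997). The largest change of all, -1.9 ± 0.83, did not pass (adjusted p = 0.156). It belonged to Sprr2a3 / Sprr2a2 / Sprr2a1, genes of the cornified epithelial envelope, at 12.32, 10.91 and 9.4 in saline and 9.48, 10 and 7.45 in metformin kidneys. These groups overlapped. In a fit blocked on the replicate number its adjusted p was 0.024, and the cluster was chosen after its values were seen.

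Among duplicated genes that rose, Psme2b / Psme2 / Psme2b-ps was the largest. Psme2 encodes a subunit of the proteasome activator PA28, and Psme2b is a copy on another chromosome. The cluster read 10.92, 11.08 and 11.36 in saline and 12.36, 12 and 12.11 in metformin kidneys (1.04 ± 0.15, adjusted p = 0.00835). A second cluster that lists Psme2 / Psme2b read 7.35, 7.39 and 7.08 against 7.39, 7.34 and 7.18 (0.03 ± 0.13, adjusted p = 0.9). The groups lay apart in the first and overlapped in the second. Dnah7b / Dnah7c, axonemal dynein heavy chains of motile cilia, read 7.9, 8.0 and 8.12 against 8.67, 8.68 and 8.62 (0.65 ± 0.11, adjusted p = 0.0104). Gm14548 / Pira2 / Pira1, activating receptors of myeloid cells (0.67 ± 0.17, adjusted p = 0.0331), and Hoxd3 / Hoxd4, homeobox genes (0.65 ± 0.18, adjusted p = 0.0456), rose too. The score of 6 macrophage markers lay at -0.47, 0.43 and -1.02 on saline and 0.47, 0.47 and 0.12 on metformin arrays, and 1 of the 6 rose. The part of these cells in the rise of Pira clusters was not tested. Hist1h2an / Hist1h2ao / Hist1h2ai and 7 more, of the H2A family, rose from 12.76, 13.17 and 12.87 to 13.48, 13.86 and 13.47 (0.67 ± 0.16, adjusted p = 0.0282). Of the 6 calls of this set, with the H4 cluster below, 2 (Psme2b and Dnah7b) held when any array was left out. The other 4 were lost without saline replicate 1 or 3 or metformin replicate 1 or 2 (adjusted p up to 0.129), and 1 without metformin replicate 3 (0.0509).

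Histone H4 genes show how far clusters with the same list can differ. The same 13 H4 genes are listed by 10 clusters, all with different values. The cluster Hist1h4h / Hist1h4m / Hist1h4b and 10 more rose, from 10.82, 11.22 and 10.76 in saline to 12.19, 11.76 and 11.48 in metformin kidneys (0.88 ± 0.2, adjusted p = 0.0265, and up to 0.0964 with an array left out). The cluster that lists Hist1h4i first had the opposite sign, 8.0, 8.15 and 8.31 against 7.22, 8.01 and 7.34 (-0.63 ± 0.21, adjusted p = 0.0774). Levels ranged from 4.82 to 11.37, and of the 10 clusters 1 rose and 0 fell. Over all 42 histone clusters with several symbols 3 rose and 2 fell, with a median change of 0.04. After median-centring 1 rose and 5 fell.

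**Figure D4:**
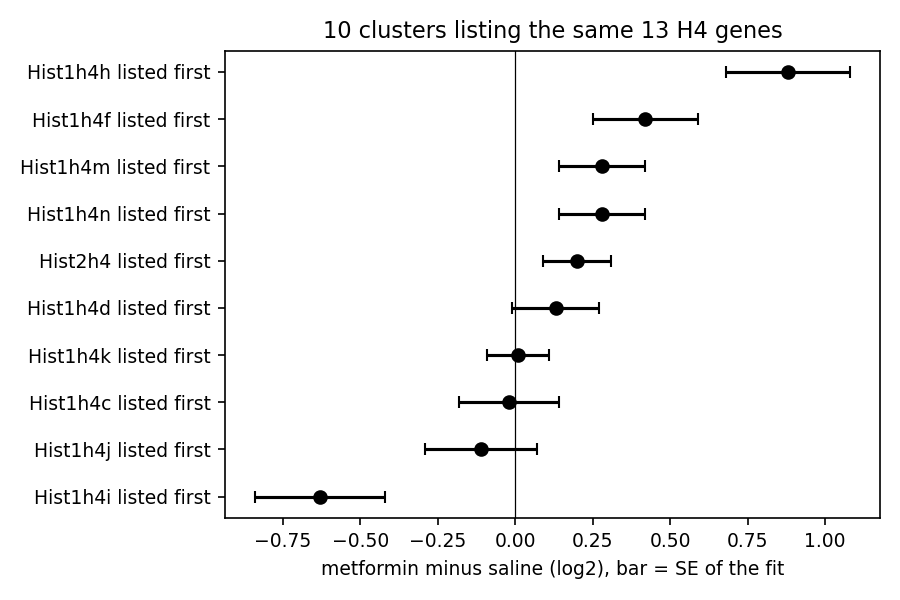
Change of the 10 clusters that list the same 13 H4 genes (log2 metformin minus saline; points, with the SE of the limma fit as bars, n = 3 per group), labelled by the gene listed first. The values run from -0.63 to 0.88.

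In all, 87 symbol sets are listed by 2 or more clusters. At least 1 cluster was called in 10 of these sets, every cluster in 5, and no set had calls in both directions. The 5 sets were the alpha globins, the beta globins, Tmem254, Cxx1a / Cxx1b (-0.81 and -0.41) and the Cd300lh set (0.96 and 0.94). A set called in part was Hist1h2bg / Hist1h2be / Hist1h2bc, with changes of -0.7 and -0.2. Another was 2310045N01Rik / Mef2b, with -0.56 and 0.08. These 2 sets and Cxx1a / Cxx1b were chosen after their values were seen.

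Clusters of 1 named gene with predicted loci or pseudogenes form the largest class, 464, of which 31 rose and 29 fell. The largest fall was that of Gm1848 / Atp1b3, with a beta subunit of the sodium-potassium pump. It read 12.87, 12.83 and 12.47 in saline and 11.15, 11.56 and 11.2 in metformin kidneys (-1.42 ± 0.16, adjusted p = 0.00746), or 2.68-fold lower, without overlap. Glud1 / Gm3219, with mitochondrial glutamate dehydrogenase, read 15.03, 14.92 and 15.28 against 14.02, 14.27 and 14.39 (-0.85 ± 0.15, adjusted p = 0.0116). Gm3776 / Gsta1, with a glutathione S-transferase, read 14.25, 13.89 and 14.37 against 12.92, 13.3 and 13.74 (-0.85 ± 0.22, adjusted p = 0.0372). All saline arrays were above all metformin arrays in these clusters. Chp1 / Gm20056, with a calcium-binding partner of sodium-proton exchangers, was tight within groups, 10.52, 10.59 and 10.51 against 9.73, 9.82 and 9.73 (-0.78 ± 0.1, adjusted p = 0.00746). Dnajc19 / Dnajc19-ps, of the mitochondrial import motor, fell by 0.82 (adjusted p = 0.0115) and Gm2423 / Ywhaq, a 14-3-3 protein, by 0.72 on the log2 scale (adjusted p = 0.0079). Them7, also listed as 0610012H03Rik, Cox14 / Gm29733, an assembly factor of cytochrome oxidase, and Rps2 / Rps2-ps13, a ribosomal protein, changed by -0.86, -0.56 and -0.5 (adjusted p = 0.041, 0.0293 and 0.0304). Other clusters that list Rps2, Rps2 / Snora64 / Gm10420 / Gm6139 and Gm10420 / Gm6139 / Rps2, changed by -0.14 and -0.18 and were not called. The score of 10 proximal tubule markers lay between 0.2 and 0.61 on saline and between -0.8 and 0.01 on metformin arrays, and 3 of the 10 fell. The part of proximal tubule cells in the called falls of this class was not tested. Trappc13, also listed as 2410002O22Rik and chosen after its value was seen, fell too (-0.69 ± 0.11, adjusted p = 0.00893) and held when any array was left out. Of the other 9 calls, 5 (Gm1848, Glud1, Chp1, Dnajc19 and Ywhaq) held when any array was left out. The other 4 were lost without saline replicate 1 or 3 or metformin replicate 1 or 2 (adjusted p up to 0.135), and 1 without metformin replicate 3 (0.0626).

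The largest rise of this class was that of the cluster shared by Tmsb10 and Gm9844. Tmsb10 / Gm9844, with a thymosin that binds actin monomers, read 11.97, 12.52 and 11.02 in saline and 13.18, 13.37 and 12.86 in metformin kidneys (1.3 ± 0.35, adjusted p = 0.0409). The cluster that lists Tmsb10 alone also rose, by 0.53. Myh9 / Gm22107, with the heavy chain of a non-muscle myosin, read 11.94, 12.79 and 11.96 against 13.69, 13.61 and 13.21 (1.27 ± 0.25, adjusted p = 0.0161). Saline array 2 was the highest of the control arrays in both, and the groups did not overlap. Firre, a long noncoding RNA also listed as 6720401G13Rik, read 8.96, 9.5 and 9.14 against 10.4, 10.4 and 10.12 (1.11 ± 0.16, adjusted p = 0.00826). Fyb / Gm7666, with an adaptor protein of T cells, rose by 1.1 (adjusted p = 0.0352), and Creb5, a transcription factor also listed as 9430076C15Rik, by 1.07 (adjusted p = 0.036). The CD300 family set Gm11710 / Gm11711 / Cd300lh gave 5.41, 6.08 and 5.43 against 6.63, 6.48 and 6.69 (0.96 ± 0.19, adjusted p = 0.017). Its second cluster, chosen after its value was seen, gave 0.94 ± 0.15 (adjusted p = 0.0102). Of these 7 calls 2 (Firre and the second Cd300lh cluster) held when any array was left out. Without saline replicate 1 or metformin replicate 1, 5 were lost (adjusted p up to 0.118 and 0.108), without metformin replicate 2, 4 (up to 0.121), and without saline replicate 3 or metformin replicate 3, 2 (up to 0.0953 and 0.0624).

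Of 5 clusters with SR or hnRNP splicing factors, RNA-binding proteins, 3 rose, 0 fell and 2 did not pass, with a median change of 0.4. Of all clusters tested 12.6% rose. After either rescaling 2 of the 5 rose. Hnrnpa1 / Gm10052 / Gm5803 / Gm5643 read 12.72, 13.13 and 12.52 in saline and 13.66, 13.56 and 13.39 in metformin kidneys (0.75 ± 0.17, adjusted p = 0.0253). Hnrnpdl, also listed as Hnrpdl, read 10.64, 10.7 and 10.5 against 11.39, 11.2 and 11.09 (0.61 ± 0.12, adjusted p = 0.0175). Hnrnpa3 / Gm6793 rose by 0.4 ± 0.1 (adjusted p = 0.0361). Metformin arrays were the higher ones in each. The clusters of Hnrnpa3 alone and of Gm6793 alone both changed by 0.11 and were not called. Sfpq, a paraspeckle and splicing protein also listed as Gm12940 and chosen after its value was seen, read 12.13, 12.22 and 11.96 against 13.28, 12.85 and 12.85 (0.89 ± 0.15, adjusted p = 0.0113). Of these 4 calls Sfpq held when any array was left out. The other 3 were lost without saline replicate 1 or 3 or metformin replicate 1 or 2 (adjusted p up to 0.107), and 1 without metformin replicate 3 (0.0649).

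Of the 147 clusters of named genes without a shared root, 4 rose and 9 fell. Nadk2, the mitochondrial NAD kinase also listed as Nadkd1, read 12.68, 12.17 and 12.35 in saline and 11.22, 11.47 and 11.67 in metformin kidneys (-0.95 ± 0.17, adjusted p = 0.0138). Hcar1, a receptor for lactate also listed as Gpr81, read 5.87, 5.75 and 5.6 against 5.02, 4.98 and 4.69 (-0.84 ± 0.13, adjusted p = 0.00982). In both the metformin arrays lay below all saline arrays. Ubl4 / Slc10a3-ubl4, with a ubiquitin-like protein of the tail-anchored protein pathway, changed by -0.86 (adjusted p = 0.00825), and Adat3 / Scamp4, with a subunit of a tRNA deaminase, by -0.68 (adjusted p = 0.0159). Utp14b / Acsl3, with a long-chain acyl-CoA synthetase, changed by -0.48 (adjusted p = 0.0425). Tmppe / Glb1, with a lysosomal galactosidase, and Rhbg / Tsacc, with an ammonia transporter of the distal nephron, changed by -0.6 and -0.59 (adjusted p = 0.0368 and 0.0463), and neither passed in the blocked fit (0.0553 and 0.0707). Among the 4 that rose, Zbed6 / Zc3h11a, a domesticated transposon gene inside another gene, read 11.38, 11.8 and 11.53 against 12.51, 12.36 and 12.16 (0.77 ± 0.15, adjusted p = 0.0158). Sap25 / Lrch4 / Gm20605 and Acrbp / Ing4 rose by 0.56 and 0.41 (adjusted p = 0.0198 and 0.0449), and Hnrnpdl is given above. Spi1, a myeloid transcription factor also listed as Sfpi1, and Aoc1 / Abp1, a diamine oxidase, were chosen after their values were seen and did not pass (0.77 ± 0.28, adjusted p = 0.0981, and 0.89 ± 0.39, adjusted p = 0.155). Of the 10 calls here without Hnrnpdl, 4 (Nadk2, Hcar1, Ubl4 and Adat3) held when any array was left out. Without saline replicate 1 or metformin replicate 1 or 2, 6 were lost (adjusted p up to 0.149), without saline replicate 3, 5 (up to 0.119), and without metformin replicate 3, 4 (up to 0.0806).

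Predicted loci alone were dim, with a median level of 4.87, and 16 of 255 passed. Gm7247 / Gm5799 read 6.53, 6.76 and 6.03 in saline and 7.94, 7.59 and 7.08 in metformin kidneys (1.1 ± 0.26, adjusted p = 0.027), and Gm3893 / Gm13306 / Gm7819 rose by 1.08 (adjusted p = 0.0451). Rps12-ps11 / Rps12-ps13, a pair of ribosomal protein pseudogenes, rose by 0.6 (adjusted p = 0.0344), with values shared by a second such cluster. The single fall was that of Cyp4b1-ps2, a P450 pseudogene also listed as Gm12839, at 8.61, 7.86 and 8.22 against 6.72, 7.52 and 7.18 (-1.09 ± 0.25, adjusted p = 0.0254, and 0.0521 in the blocked fit). All groups named here were apart, but all 4 calls were lost without saline replicate 1 or without saline replicate 3 (adjusted p up to 0.148 and 0.109). Without any single metformin array 3 were lost (up to 0.131).

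Several families gave few or no calls. Of 59 clusters with a cytosolic ribosomal protein 4 rose and 2 fell, with a median change of -0.01. After median-centring 0 rose and 3 fell. Of 8 P450 clusters 2 fell and 0 rose (median -0.45). That is 25% called, above the 17.7% of all clusters tested, of which 5.05% fell. After quantile normalization 3 of the 8 P450 clusters fell. Of 21 clusters of immunoglobulin segments 20 had a change above 0, with a median of 0.26, and 0 passed. Igkv4-74 / Igk had the highest of these changes, with 5.12, 4.79 and 5.25 in saline and 5.42, 5.9 and 6.59 in metformin kidneys (0.92 ± 0.28, adjusted p = 0.0588, and 0.0393 in the blocked fit). Of 19 chemokine clusters, 8 of MHC genes and 31 of olfactory and vomeronasal receptors 0 passed, with median changes of -0.2, -0.16 and 0.11. After quantile normalization 7 of the chemokine clusters fell. The 3 clusters of major urinary proteins changed by -1.16 to -0.61, and none passed. With the adipocyte score in the fit the sign turned for Mup19 / Mup16 / Mup9 (0.22) and Gm2083 / Mup22 / Mup18 (0.26). Mup19 / Mup16 / Mup9 stood at 5.77, 6.15 and 4.47 against 4.26, 4.05 and 4.6 (adjusted p = 0.081), with overlap. The 5 brightest clusters hold mitochondrial transcripts and Gapdh. ND5 / CYTB, with subunits of respiratory complexes I and III, gave 19.92, 19.86 and 19.93 against 19.79, 19.78 and 19.87 (-0.09 ± 0.1, adjusted p = 0.579). Gm7336 / Gapdh changed by -0.11 (adjusted p = 0.547).

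A shared cluster can be set beside a cluster that lists only one of its genes. This was possible in 508 pairs, of which 10 had identical values and 498, from 365 shared clusters, were tested by the difference within each array. Both clusters were called in 42 pairs, always in the same direction, though many of these pairs repeat the same genes or values. The shared cluster alone was called in 30, the other alone in 63 and neither in 363. The size of the difference in change was 0.11 at the median and 1.42 at most. By limma 0 of the 498 differences passed an adjusted p of 0.05 (0.0%), with 80 at an unadjusted p under 0.05 and a smallest adjusted p of 0.0667. In the blocked fit 2 passed, and without saline replicate 3, 1 passed.

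The pairs with the smallest p show where the values lie furthest apart for their spread. E130112N10Rik / Vamp1 rose by 0.54 (adjusted p = 0.0229), where the cluster of Vamp1, a vesicle fusion protein, differed by -0.12 (difference 0.66 ± 0.08, adjusted p = 0.0667). Junb / Prdx2, neighbouring genes of a transcription factor and a peroxide-reducing enzyme, differed by 0.32, and the cluster of Prdx2 by -0.41 (difference 0.73 ± 0.12, adjusted p = 0.0667). Gm2423 / Ywhaq changed by -0.72 and the cluster of Ywhaq by -0.19, and Gm1848 / Atp1b3 by -1.42 and that of Atp1b3 by -0.86. None of these differences passed the adjusted threshold. BC024978 / Mir1191 differed by 0.13, and Mir1191 alone by 0.94 (adjusted p = 0.0667 for the difference). The widest gap in this set was that of Hspa8 / Snord14d / Snord14e / Snord14c, at 0.06, and the cluster of Snord14e, a small nucleolar RNA of its introns, at 1.48 (difference -1.42 ± 0.25, adjusted p = 0.0708). For the H4 cluster that lists Hist1h4k first the change was 0.01, and for that of Hist1h4a alone 0.55 (adjusted p = 0.081 for the difference). With an array left out the adjusted p of these 7 differences rose to at most 0.24.

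**Figure D5:**
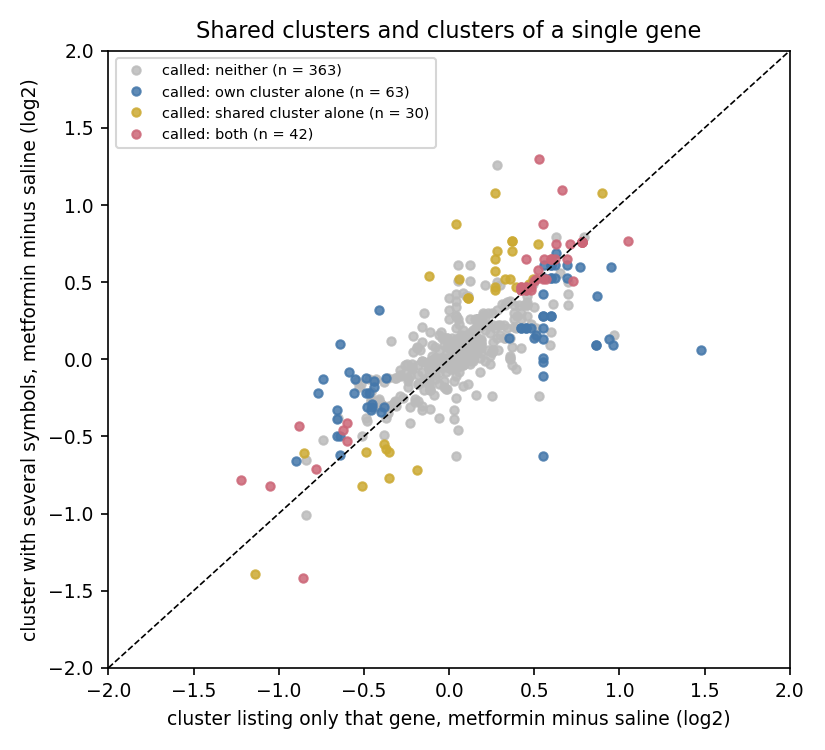
Change of the shared cluster (vertical axis, log2 metformin minus saline) against that of a cluster listing only one of its genes (horizontal axis, log2) in 498 pairs, coloured by which of them was called; the dashed line marks equal change. The 42 pairs called in both, many of which repeat the same genes or values, lie in the same direction. The point at 1.48 is Snord14e beside the Hspa8 set.

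The array values as a whole give the setting for these results. Pkd1 itself, which the transgene targets, rose from 6.7, 7.16 and 6.67 to 7.57, 7.58 and 7.34 (0.65 ± 0.16, adjusted p = 0.0312). Array medians lay between 4.67 and 4.86. Of the 9 adipocyte markers whose score is given above 3 fell. With this score as a covariate 0 of the 1575 clusters were called by limma, and the score and the group correlated at -0.805. Of 82 named calls 8 then had a change over 1.5 times larger, up to 2.47 for Tmsb10 / Gm9844, and 2 a smaller one by that factor, Hspa1b / Hspa1a and Slc35f6 / Mir5625 / Gm23930 (-0.3). No named call turned its sign. Of 4 hepatocyte markers 2 fell. The scores of fibroblasts and macrophages overlapped between the groups.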

How the data were processed

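Whole-kidney RNA of 6 mice was measured on 1 array each, with biotin labelling by a GeneChip WT PLUS kit (per the labels). The authors deposited log2 expression for each transcript cluster. The submitters' processing notes name RMA and Transcriptome Analysis Console 4.0. For the RMA variant and the array's genome build, none was given in the sources used here. Values reach 19.93, and folds hold on the deposited scale. Symbols came from GEO's platform annotation, which can be old, and names, neighbours and sequences from RefSeq tables of GRCm38.p6. No RefSeq position was mapped onto the array.

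Clusters above the 33.3rd percentile entered a two-sided comparison, metformin minus saline, by lmFit and eBayes of limma 3.58.1 (R 4.3.3) without covariates. Benjamini-Hochberg adjustment ran over all 43992. Errors are SE of the fit, and 3 arrays per group limit the precision. For pairs, limma was run on the difference within each array. An exact permutation test of 3 against 3 cannot go below 0.1.

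Members, symbol groups and marker lists were chosen with earlier results of these data known. Named were up to 6 calls per class and direction (2 for predicted loci), 3 members per family group by p, the 12 pairs with the smallest p, the 5 brightest and the 3 nearest the level on each side (132 members), and 14 chosen after their values were seen, as were the other sets marked so in the text. The labels state no pairing of the mice. Deviations from the group means correlated at 0.122, 0.136 and 0.425 for replicates 1, 2 and 3 of the labels. Saline 2 with metformin 1 gave 0.201, above the values for replicates 1 and 2. A pairing is thus uncertain, and the replicate block was an alternative to the main fit. In data simulated over 43992 clusters the test recovered 2%, 4%, 50% and 98% of 50 clusters changed by 1.25, 1.5, 2 and 4-fold. Of its calls 2.53% were false. Few clusters were changed there and the noise was independent, while 17.7% of the real clusters were called. These rates therefore do not describe the real calls. Scores are mean deviations of markers from their own means. Alternatives were the replicate block, each array left out, other scalings, filters, variance models and thresholds, identical rows once, and the adipocyte score.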

Additional observations from a re-analysis of the deposited data

How the results depend on the processing

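The 191 calls ranged from 33 to 197 with an array left out, and were 220 with the replicate block, 143 after median-centring and 198 after quantile normalization. They were 158 without the level filter, 206 above the 50th percentile, 170 with trend and robust options, 217 with array weights, 192 with identical rows once and 158 at an unadjusted p under 0.05 with 1.5-fold (10%, against 16.3% of all clusters). A plain equal-variance test called 1, and with the adipocyte score 0 were called. Per class, the calls with an array left out ran from 10 to 63 for 1 named gene with predicted loci, 6 to 30 for family roots, 4 to 16 for no shared root, 0 to 15 for predicted loci, 3 to 42 for a small RNA with another gene and 10 to 31 for small RNAs alone. Median-centring gave 8 for predicted loci, 24 for a small RNA with another gene and 25 for small RNAs alone, and quantile normalization 28 for no shared root and 17 for small RNAs alone. The median change was -0.01 after median-centring, -0.03 after quantile normalization and 0.05 with the adipocyte score. Unequal pairs numbered 2 with the replicate block, 1 with trend and robust options, 1 in the plain test and 0 to 1 with an array left out. The block kept 169 of the 191 calls and turned no sign. No named cluster turned its sign in any alternative where it was called. The cause of these shifts was not tested. Signal limits the dim clusters, which lie near the level filter.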
